A study of Mus musculus with 12 samples.

Results

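The 9 genes Pdgfrb, Rgs5, Acta2, Tagln, Myh11, Abcc9, Vtn, Anpep and Des, which mark pericytes and vascular smooth muscle cells in brain, were followed with age in the mouse subventricular zone (SVZ). They were chosen by symbol, and all 9 were found among the 23725 genes of the deposited table. The SVZ is the neurogenic layer along the lateral ventricle wall. Bulk RNA sequencing covered 12 libraries, 3 from each of 4 ages: 2, 6, 18 and 22 months. All libraries came from male wild-type mice without treatment, and the strain is given as C57BL/6 for the 2-month libraries only. The SVZ was dissected and dissociated into single cells, from which total RNA was extracted with Trizol, so the libraries held every cell type that survived dissociation. The labels do not say whether an animal, or a pool of animals, stood behind each library, so the tests weigh differences against the scatter among libraries, which may be technical.

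Pericytes and vascular smooth muscle cells, together called mural cells, wrap the endothelial tube of brain vessels. Smooth muscle cells on arteries and arterioles carry contractile proteins that set vessel diameter, while capillary pericytes carry the PDGF receptor beta, through which endothelial PDGF-B recruits and keeps them. Pericytes are known to support the blood-brain barrier, and in the adult SVZ blood vessels form part of the stem cell niche.

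Libraries held 6381390 to 15962517 reads assigned to genes, recovered from the deposited normalised counts. The 9 members were counted well above the limit that a count of 0 allows (3 reads, or 1.74 to 4.41 normalised counts). Acta2 had 506 to 1218 reads per library, Vtn 320 to 697, Rgs5 205 to 533, Pdgfrb 197 to 481 and Myh11 140 to 558. Des had 59 to 155 reads, Abcc9 58 to 154, Tagln 49 to 127 and Anpep 11 to 36, so Anpep was the least precisely measured. All 9 passed the filter on low values (10 or more normalised counts in 3 or more libraries), and each reached that level in all 12. The 22-month libraries stood apart in the lengths of the transcripts their reads came from. Genes whose longest transcript exceeded 6000 nt took 19.8 to 20.2% of reads at 22 months and 22.1 to 24.8% in the other 9 libraries. Genes under 2000 nt took 14.2 to 14.5% at 22 months and 11.8 to 13.2% elsewhere.

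Between 2 and 22 months, 4 of the 9 members changed: Vtn and Des rose, and Myh11 and Rgs5 fell. The other 5, Acta2, Tagln, Pdgfrb, Abcc9 and Anpep, did not pass the test. The calls depended on the length shift: after the length and GC adjustment described below, 2 members were called, Vtn higher and Tagln lower. In that fit 22.3% of all tested genes were called in either direction. A change was called at an adjusted p under 0.05 in limma, over 15663 tested genes. The background was high, since 18.4% of all tested genes were called higher and 17.2% lower at 22 than at 2 months, so the members' 2 higher and 2 lower calls lie close to the share among all genes. The median log2 fold change was -0.05 for the 9 members and 0.02 for all tested genes. In bulk RNA from dissociated cells, fewer cells of a type, fewer of them surviving dissociation and less RNA per cell cannot be told apart.

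Few members were called between neighbouring ages. No member was called between 2 and 6 months, when 0.607% of all tested genes were called higher and 0.319% lower, or between 6 and 18 months, with 0.0702% higher and 0.083% lower. DESeq2 and edgeR on recovered reads also called no member in either comparison. At an unadjusted p under 0.05, limma left 1 of 9 members in each, where 15.4% and 9.19% of all tested genes were under that p. Rgs5 was lower at 6 than at 2 months (log2 fold change -0.22 ± 0.10, adjusted p = 0.32), and Vtn higher at 18 than at 6 months (0.24 ± 0.09, adjusted p = 0.402). Of the 3 steps between neighbouring ages, the one from 2 to 6 months was the largest for Rgs5, and for Des (0.29 ± 0.15, adjusted p = 0.361). Their steps from 18 to 22 months were close in size, at -0.16 ± 0.10 (limma, adjusted p = 0.304) and 0.26 ± 0.15 (adjusted p = 0.232). No timing can be read from this order. Between 2 and 18 months Vtn alone was called, higher, against 3.94% of all genes called higher and 3.35% lower. Between 18 and 22 months Myh11 alone was called, lower, against 8.63% higher and 10.2% lower. Between 6 and 22 months Vtn was called higher and Myh11 lower, against 10.6% higher and 11.6% lower. In the F test over the 4 ages, 2 of 9 members passed, Vtn and Myh11, while 31.5% of all tested genes passed.

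**Figure D1:**
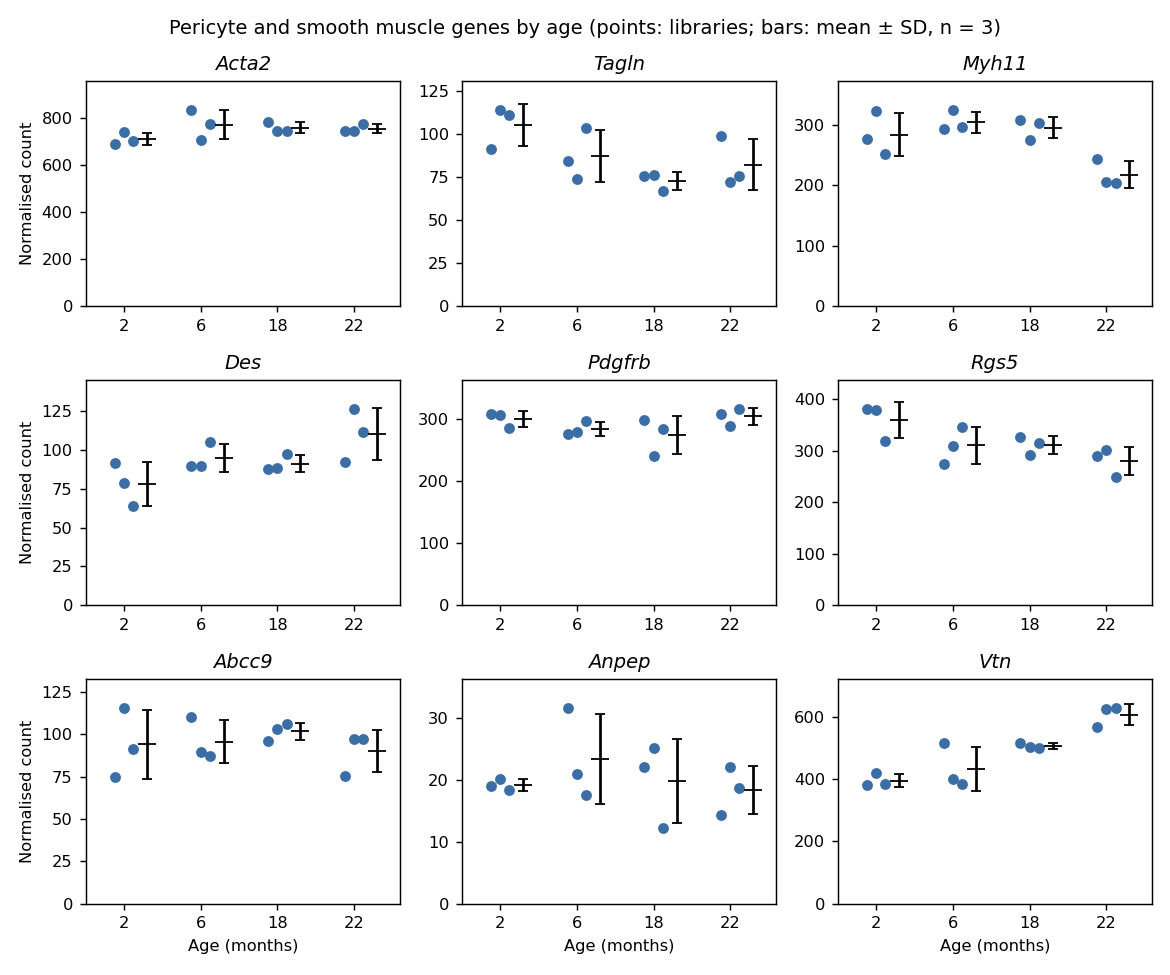
Normalised count (vertical axis, from 0, its scale differing between panels) of each of the 9 members against age in months; points are libraries, and black bars are the mean ± SD of 3 libraries. Vtn at 22 months (567 to 629) and Myh11 at 22 months (204 to 244) lie apart from every library of the other ages.

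Levels per kilobase of transcript ordered the members. Averaged over 12 libraries, Acta2 stood at 368 ± 19.4 (SD, n = 12) normalised counts per kb and Vtn at 278 ± 52.4. Rgs5 followed at 76.9 ± 9.61, then Tagln at 54.5 ± 10.2, Pdgfrb at 53.6 ± 3.74 and Myh11 at 42.1 ± 6.30. Des stood at 30.9 ± 5.25, Abcc9 at 12.7 ± 1.67 and Anpep at 5.31 ± 1.31. Tagln and Pdgfrb, neighbours in this order, did not differ beyond their spread, and the spreads of Tagln and Myh11, and of Myh11 and Des, also overlapped. At 22 months Des (36.4) stood above Myh11 (33.3), and Pdgfrb (56.1) above Tagln (51.6).

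Among the contractile genes, Acta2 encodes smooth muscle alpha-actin, the thin filament actin of vascular smooth muscle (chromosome 19, 34240336 to 34255585 in GRCm38.p6). The normalised count of Acta2 was 689, 740.0 and 702 in the 3 libraries at 2 months and 832, 707 and 775 at 6 months. It was 784, 745 and 745 at 18 months and 743, 743 and 775 at 22 months. The 22-month libraries all exceeded the 2-month ones, by a narrow margin. The log2 fold change was 0.09 ± 0.06 (SE; adjusted p = 0.315), with a 95% confidence interval of -0.05 to 0.22.

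Smooth muscle contractile genes are classically driven by serum response factor (Srf) bound at CArG boxes with its coactivators myocardin (Myocd) and the myocardin-related factors (Mkl1, Mkl2). RefSeq promoters, from 250 bases before to 50 after the gene start, were at hand for 6 members: Rgs5, Acta2, Abcc9, Vtn, Anpep and Des. An exact CArG box, searched on both strands in the 250 upstream bases, was found in 0 of these 6 and in 1.47% of 32851 promoters. With 1 base of its 6-base core allowed to be G or C, a rule added after the exact search, it was found in Acta2 alone of the 6 and in 8.59% of all promoters. A match describes letters only and shows no binding. The Acta2 matches are printed because they are the elements of this kind in the most abundant member, from the minus strand of GRCm38.p6, 5′ to 3′, with the 10 matching bases in capitals. The first lies 84 bases and the second 34 bases before the start that the promoter table uses, base 34255373, which lies inside the gene span given above.
Acta2, chr19:34255438-34255467: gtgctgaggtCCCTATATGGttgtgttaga
Acta2, chr19:34255388-34255417: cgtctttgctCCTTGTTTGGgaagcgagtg

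Myh11 encodes the smooth muscle myosin heavy chain, the thick filament motor and a marker of differentiated smooth muscle (chromosome 16, 14194527 to 14292188; longest transcript 6549 nt). Its normalised counts were 277, 323 and 252 at 2 months, 293, 324 and 297 at 6 months, and 308, 276 and 304 at 18 months. At 22 months they were 244, 206 and 204. All 3 of the 22-month libraries lay below all 9 younger ones, which overlapped each other. The mean was 284 ± 35.8 (SD, n = 3) at 2 months, 304 ± 17.03 at 6, 296 ± 17.6 at 18 and 218 ± 22.5 at 22. From 18 to 22 months Myh11 fell by 0.44 ± 0.10 on the log2 scale (SE; limma, adjusted p = 0.00623). From 6 to 22 months it fell by 0.48 ± 0.10 (adjusted p = 0.00297), and from 2 to 22 months by 0.38 ± 0.10 (adjusted p = 0.00722). The last call was lost without replicate 2 at 2 months (log2 fold change -0.28, adjusted p = 0.0513). A length and GC adjustment subtracted from each library the smooth trend, over transcript length and GC share, of its log2 values after each gene's mean over all libraries was taken off. After it, the fall from 6 to 22 months still passed (-0.30, adjusted p = 0.0418). The falls from 18 to 22 months (-0.28, adjusted p = 0.0632) and from 2 to 22 months (-0.22, adjusted p = 0.108) did not.

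Tagln encodes transgelin, or SM22 alpha, an actin-binding protein of smooth muscle (chromosome 9, 45929628 to 45936058; longest transcript 1595 nt). Normalised counts of Tagln were 91.5, 114 and 111 at 2 months, 84.6, 73.7 and 104 at 6 months, 75.7, 76.2 and 66.7 at 18 months, and 99.1, 72.0 and 75.6 at 22 months. All 18-month libraries lay below all 2-month libraries, while the 22-month libraries overlapped them through replicate 1. The log2 fold change was -0.52 ± 0.16 from 2 to 18 months (limma, adjusted p = 0.0506) and -0.36 ± 0.16 from 2 to 22 months (adjusted p = 0.0798), so neither was called. After length and GC adjustment both passed, at -0.61 (adjusted p = 0.0231) and -0.59 ± 0.16 (adjusted p = 0.012). The 18-month value also passed without replicate 2 or replicate 3 at 6 months or replicate 1 at 22 months, with adjusted p down to 0.0308. The 22-month value passed without its replicate 1 (-0.50, adjusted p = 0.0226). Tagln shares 62.4% of its exon bases with the opposite-strand gene Gm48529 and 5.43% with Pcsk7. Whether the counting used strand is not given in the sources used here, so part of its count could belong to these genes.

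Des encodes desmin, the muscle intermediate filament protein that brain pericytes and smooth muscle cells also carry (chromosome 1, 75360292 to 75368579). Its normalised counts were 91.5, 78.9 and 63.6 at 2 months, 89.7, 90.0 and 105 at 6 months, and 87.6, 88.3 and 97.6 at 18 months. At 22 months they were 92.6, 126 and 112. The lowest 22-month library lay just above the highest 2-month library. Des rose from 2 to 22 months by a log2 fold change of 0.50 ± 0.15 (limma, adjusted p = 0.0153). The call was lost without replicate 3 at 2 months (0.36, adjusted p = 0.079) and without replicate 2 at 22 months (0.40, adjusted p = 0.0778). It was also lost after length and GC adjustment (0.36 ± 0.14, adjusted p = 0.0746). Des shares 5.86% of its exon bases with the opposite-strand gene Gm15179.

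Among the pericyte signalling genes, Pdgfrb encodes PDGF receptor beta, the receptor by which endothelial PDGF-B holds pericytes on capillaries (chromosome 18, 61045127 to 61085067). Libraries at 2 months held 308, 307 and 286 normalised counts of Pdgfrb, followed by 275, 279 and 296 at 6 months, 299, 241 and 283 at 18 months, and 308, 289 and 316 at 22 months. The ages overlapped. The log2 fold change from 2 to 22 months was 0.02 ± 0.09 (adjusted p = 0.882), with a 95% confidence interval of -0.16 to 0.20. After length and GC adjustment, the difference between 18 and 22 months passed (0.25 ± 0.08 higher at 22 months, adjusted p = 0.0486), against 0.15 ± 0.09 (adjusted p = 0.219) without that step.

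Rgs5 encodes a regulator of G protein signalling that marks pericytes (chromosome 1, 169655501 to 169695813). Rgs5 stood at 380.3, 379.6 and 319 normalised counts at 2 months, 274, 309 and 346 at 6 months, 326, 292 and 315 at 18 months, and 289, 301 and 249 at 22 months. All 22-month libraries lay below all 2-month libraries, and the intermediate ages overlapped both. Rgs5 fell by 0.36 ± 0.10 on the log2 scale from 2 to 22 months (limma, adjusted p = 0.0106). Its F test over the 4 ages did not pass (adjusted p = 0.0583). The fall lost its call without replicate 2 at 2 months (-0.32, adjusted p = 0.0508), replicate 1 at 2 months (-0.32, adjusted p = 0.05005) or replicate 3 at 22 months (-0.28, adjusted p = 0.0623). It also lost it after length and GC adjustment (-0.25 ± 0.09, adjusted p = 0.0644).

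Abcc9 encodes SUR2, the regulatory subunit that pairs with the pore subunit Kir6.1 (Kcnj8) in the ATP-sensitive potassium channel of mural cells (chromosome 6, 142587862 to 142702766). Its normalised counts were 74.9, 116 and 91.6 at 2 months, 110.1, 89.4 and 87.0 at 6 months, 96.1, 103 and 106 at 18 months, and 75.6, 97.0 and 97.4 at 22 months. The ages overlapped, and the log2 fold change from 2 to 22 months was -0.05 ± 0.16 (adjusted p = 0.833), with a 95% confidence interval of -0.38 to 0.28. Kcnj8 rose from 54.0 ± 2.56 (SD, n = 3) at 2 months to 75.8 ± 10.4 at 22 months, a log2 fold change of 0.47 ± 0.15 (limma, adjusted p = 0.0217). The Kcnj8 call was lost without replicate 1 at 2 months or replicates 2 or 3 at 22 months (adjusted p up to 0.0847), with DESeq2, and after length and GC adjustment (0.32, adjusted p = 0.118). Whether the 2 channel genes differed in their change was not tested. Abcc9 shares 1.89% of its exon bases with the opposite-strand gene 5330439B14Rik.

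Anpep encodes aminopeptidase N, or CD13, a surface peptidase used to sort brain pericytes (chromosome 7, 79821803 to 79848210). Its normalised counts were 19.0, 20.2 and 18.3 at 2 months, 31.6, 20.9 and 17.6 at 6 months, 22.1, 25.1 and 12.2 at 18 months, and 14.3, 22.0 and 18.6 at 22 months. The ages overlapped. The log2 fold change from 2 to 22 months was -0.08 ± 0.29 (adjusted p = 0.858), and its 95% confidence interval, -0.69 to 0.54, was the widest of the 9.

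Vtn encodes vitronectin, a secreted adhesion glycoprotein that brain pericytes make and that binds integrins containing the alpha-v subunit (chromosome 11, 78499120 to 78502325; longest transcript 1744 nt). Its normalised counts were 380.3, 419 and 385 at 2 months, 515, 401 and 384 at 6 months, 516, 502 and 500.2 at 18 months, and 567, 624 and 629 at 22 months. The 22-month libraries lay above all 9 others, the 18-month libraries lay above all 2-month libraries, and replicate 1 at 6 months lay among the 18-month values. The mean was 395 ± 21.2 (SD, n = 3) at 2 months, 433 ± 71.0 at 6, 506 ± 8.70 at 18 and 607 ± 34.4 at 22. From 2 to 22 months Vtn rose 1.54-fold, a log2 fold change of 0.62 ± 0.09 (limma, adjusted p = 0.00012). From 6 to 22 months it rose by 0.50 ± 0.09 (adjusted p = 0.00148). Each of these calls was kept without any 1 of the 12 libraries and under all 10 other alternatives. After length and GC adjustment the values were 0.38 ± 0.08 (adjusted p = 0.00215) and 0.34 ± 0.08 (adjusted p = 0.00789), the first over 1.5 times smaller.

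The earlier part of the Vtn rise was less secure. From 2 to 18 months the log2 fold change was 0.36 ± 0.09 (limma, adjusted p = 0.0238), and 0.26 ± 0.08 (adjusted p = 0.0473) after length and GC adjustment. It lost its call without replicate 1 (0.33, adjusted p = 0.0909) or replicate 3 (0.34, adjusted p = 0.0736) at 2 months. It also lost it without replicate 1 (adjusted p = 0.0717), 2 (adjusted p = 0.0557) or 3 (adjusted p = 0.0617) at 18 months. From 18 to 22 months the value was 0.26 ± 0.09 (adjusted p = 0.0565), not called; without replicate 1 or replicate 3 at 6 months, or replicate 1 at 22 months, it passed.

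**Figure D2:**
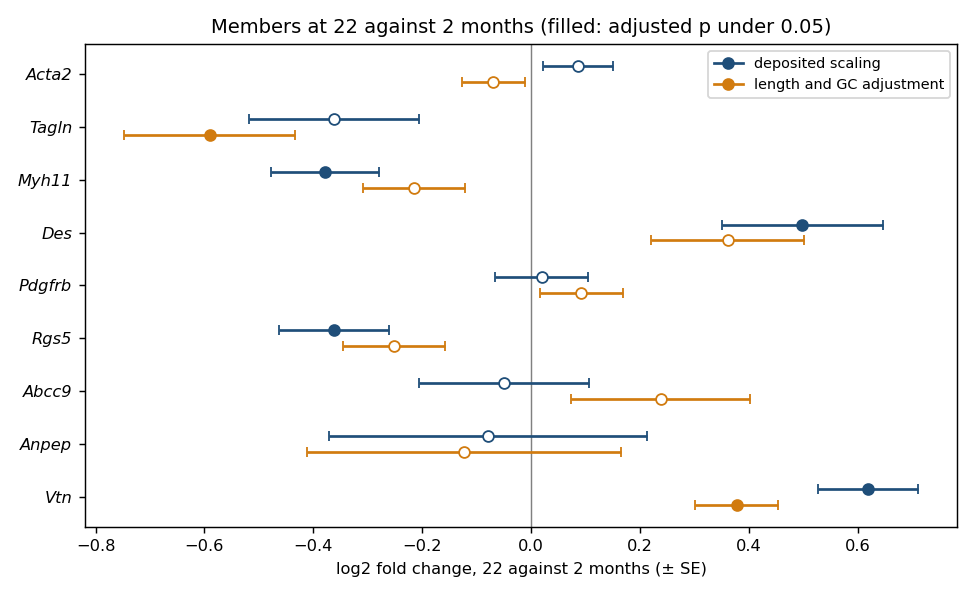
Log2 fold change at 22 against 2 months (horizontal axis, ± SE) of the 9 members, with the deposited scaling in blue and after length and GC adjustment in orange; filled points have an adjusted p under 0.05. Vtn is the member called under both, at 0.62 and 0.38, while Myh11, Rgs5 and Des keep their direction without passing and Tagln passes only after the adjustment.

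Shares of the members' sum within libraries did not overlap between 2 and 22 months for Vtn, Myh11 and Rgs5. The summed normalised count of the 9 was 2345 ± 138 (SD, n = 3) at 2 months, 2404 ± 105 at 6, 2431 ± 83.2 at 18 and 2463 ± 26.5 at 22. Vtn made up 16.8% of that sum at 2 months and 24.6% at 22, while Myh11 made up 12.1% and 8.85%, and Rgs5 15.3% and 11.4%. The Tagln share was 3.96 to 4.98% at 2 months, 2.75 to 3.24% at 18 and 2.90 to 4.07% at 22. Because such shares compare genes within a library, a common scaling error cannot move them, although the length trend can. The ratio of Myh11 to Acta2, the motor to its actin, was 0.402, 0.436 and 0.359 at 2 months, 0.352, 0.458 and 0.383 at 6 months, and 0.393, 0.370 and 0.408 at 18 months. At 22 months it was 0.328, 0.277 and 0.263, below all 9 younger libraries. The ratio of Vtn to Pdgfrb had a mean of 1.32 ± 0.0699 at 2 months, 1.53 ± 0.299 at 6, 1.86 ± 0.197 at 18 and 2.00 ± 0.157 at 22. Its 18- and 22-month libraries all lay above all 2-month libraries and overlapped each other. These ratios are of counts not divided by length, and are given as a description with no test. The longest transcripts measure 6549 nt for Myh11 and 2035 nt for Acta2. They measure 1744 nt for Vtn and 5423 nt for Pdgfrb, and neither ratio was adjusted for the length trend.

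**Figure D3:**
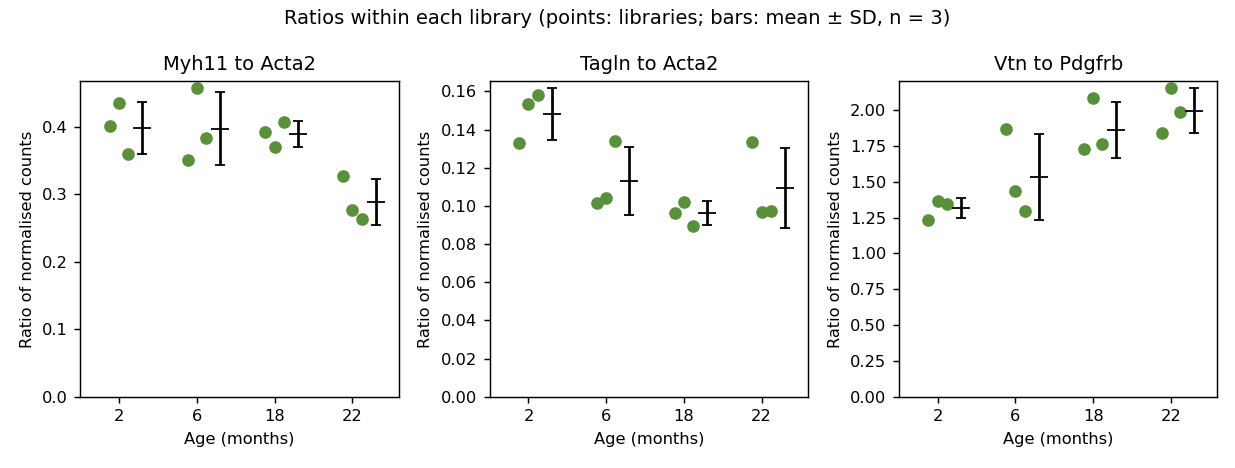
Ratio of normalised counts within each library (vertical axis, from 0) against age in months for Myh11 to Acta2, Tagln to Acta2 and Vtn to Pdgfrb; points are libraries and black bars the mean ± SD of 3. The 22-month Myh11 to Acta2 values, 0.263 to 0.328, lie below all others, and the Vtn to Pdgfrb mean goes from 1.32 at 2 months to 2.00 at 22 months. Tagln to Acta2 is 0.133 to 0.158 at 2 months, 0.0896 to 0.102 at 18 months and 0.0968 to 0.133 at 22 months.

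Vitronectin is bound by integrins, and of 5 tested integrin subunits 1 rose and 1 fell from 2 to 22 months. Of all tested genes, 18.4% were called higher and 17.2% lower over that span. Itgb5, the beta subunit of the alpha-v beta-5 vitronectin receptor, rose from 441 ± 21.6 (SD, n = 3) through 475 ± 26.2 at 6 months and 574 ± 8.40 at 18 months to 666 ± 36.8. Its log2 fold change from 2 to 22 months was 0.59 ± 0.07 (limma, adjusted p = 1.42e-05), kept without any 1 library, and 0.47 after length and GC adjustment (adjusted p = 2.57e-05). Which cell type carried the Itgb5 rise was not tested. Itgb8, the beta subunit of the TGF-beta-activating alpha-v beta-8 integrin, fell by 0.74 ± 0.20 (adjusted p = 0.00928), lost after that adjustment (-0.34, adjusted p = 0.175). Itgav, the shared alpha-v subunit, had a log2 fold change of 0.12 ± 0.07 (adjusted p = 0.20) over that span, and was called higher after that adjustment (0.41 ± 0.06, adjusted p = 0.000119). From 2 to 18 months it rose by 0.28 ± 0.07 (adjusted p = 0.0225), lost without replicate 1 or 3 at 2 months or replicate 2 or 3 at 18 months (adjusted p up to 0.0962).

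Of 18 tested contractile genes outside the members, 4 rose and 2 fell from 2 to 22 months, with a median log2 fold change of 0.02, or -0.04 after length and GC adjustment. Among all tested genes, 18.4% were called higher and 17.2% lower. Ppp1r12b, a targeting subunit of myosin phosphatase, fell from 554 ± 35.0 to 316 ± 35.0, by 0.81 ± 0.11 on the log2 scale (limma, adjusted p = 7.82e-05). Myl9, a regulatory myosin light chain, rose by 0.35 ± 0.07 (adjusted p = 0.00114), lost after length and GC adjustment (0.04, adjusted p = 0.695). Tpm2, a tropomyosin, rose by 0.33 ± 0.09 (adjusted p = 0.0121), lost without replicate 1 at 2 months (adjusted p = 0.0697), with DESeq2 (adjusted p = 0.0584) and after that adjustment (0.13, adjusted p = 0.34). Sncg and Pcp4l1, which neurons also express, rose by 1.11 ± 0.15 (adjusted p = 7.31e-05) and 0.43 ± 0.06 (adjusted p = 0.000116). Ppp1r12b, Sncg and Pcp4l1 passed without any 1 library and after that adjustment (-0.51, 0.77 and 0.19). Of the CArG-box factors, Srf had -0.04 ± 0.07 (adjusted p = 0.722) and was called lower after that adjustment (-0.23 ± 0.06, adjusted p = 0.0119). Myocd had -0.55 ± 0.39 (adjusted p = 0.297) and Mkl1 0.05 ± 0.06 (adjusted p = 0.585). Mkl2 fell by 0.21 ± 0.06 (adjusted p = 0.0146), lost without replicate 3 at 2 months (adjusted p = 0.0519), and its direction turned after that adjustment (0.09, adjusted p = 0.182).

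Of 17 pericyte genes outside the members, 2 rose (Kcnj8 and Art3) and 3 fell (Rgs4, Mcam and Cspg4) from 2 to 22 months, with a median of -0.05, or -0.02 after length and GC adjustment. The shares among all tested genes were 18.4% higher and 17.2% lower. Rgs4, a relative of Rgs5 that striatal and cortical neurons also express, fell by 0.30 ± 0.08 (limma, adjusted p = 0.00876), kept without any 1 library and after that adjustment (-0.32, adjusted p = 0.00702). Mcam, the adhesion molecule CD146, fell by 0.37 ± 0.12 (adjusted p = 0.0234), lost without replicate 1 or 2 at 2 months or replicate 1 or 3 at 22 months (adjusted p up to 0.142). Cspg4, the NG2 proteoglycan shared with oligodendrocyte precursors, fell by 0.29 ± 0.11 (adjusted p = 0.0458), passing in 4 of 12 fits with a library left out and lost after that adjustment (-0.08, adjusted p = 0.586). After that adjustment, 0 of the 17 were called higher and 2 lower, Mcam and Rgs4. In that fit 22.3% of all tested genes were called in either direction. Art3 rose by 0.71 ± 0.20 (adjusted p = 0.0116), lost without replicate 3 at 2 months (adjusted p = 0.0614). Tbx18, a transcription factor of mural cells, fell from 18 to 22 months (log2 fold change -1.39 ± 0.36, adjusted p = 0.0132), lost without replicate 1 at 18 months (adjusted p = 0.0727). Notch3, the receptor that maintains arterial smooth muscle, had -0.12 ± 0.11 (adjusted p = 0.404), and 0.08 after that adjustment (adjusted p = 0.577).

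Of the PDGF genes beside Pdgfrb, 2 of 5 rose and 2 fell from 2 to 22 months. Over that span 18.4% of all tested genes were called higher and 17.2% lower. Pdgfb, the ligand that endothelial cells present to pericytes, went from 119 ± 12.1 to 160.1 ± 34.7 (SD, n = 3), a rise of 0.40 ± 0.15 (limma, adjusted p = 0.0434). It was lost without replicate 1 or 2 at 2 months, replicate 3 at 6 months or replicate 2 or 3 at 22 months (adjusted p up to 0.203) and after length and GC adjustment (0.24, adjusted p = 0.189). Pdgfa rose by 0.26 ± 0.10 (adjusted p = 0.0479) and passed in 1 of 12 fits with a library left out, and Pdgfc fell by 0.42 ± 0.16 (adjusted p = 0.0458) and passed in 5 of 12. Pdgfra, the receptor of oligodendrocyte precursors and fibroblasts, fell by 0.38 ± 0.09 (adjusted p = 0.00288), lost after that adjustment (-0.15, adjusted p = 0.179).

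Of 15 genes of vessel signalling and mural cell recruitment, 4 rose and 1 fell from 2 to 22 months. The shares among all tested genes were 18.4% higher and 17.2% lower. The 4 that rose were Tgfbr2, Eng, Acvrl1 and Jag1, of which the first 3 belong to the TGF-beta receptor family. Tgfbr2, the type II receptor, rose from 222 ± 5.43 (SD, n = 3) through 241 ± 19.8 and 278 ± 20.3 to 334 ± 11.96, by 0.59 ± 0.08 (limma, adjusted p = 8.47e-05). Eng, or endoglin, rose by 0.82 ± 0.16 (adjusted p = 0.000887), and Acvrl1, or ALK1, by 0.35 ± 0.09 (adjusted p = 0.00744). These 3 passed without any 1 library and after length and GC adjustment (0.87, 0.72 and 0.27). Which cell types carried these rises in bulk RNA was not tested. The summed microglia marker count averaged 3455, 3656, 4286 and 4621 at 2, 6, 18 and 22 months. Jag1, a Notch ligand, rose by 0.35 ± 0.13 (adjusted p = 0.0414), lost without any of the 3 libraries at 2 months, replicate 3 at 6 months or replicate 2 at 22 months (adjusted p up to 0.225). Notch1 fell by 0.46 ± 0.09 (adjusted p = 0.00113), lost after that adjustment (-0.17, adjusted p = 0.0658). The direction of its fall from 6 to 22 months (-0.31 ± 0.09, adjusted p = 0.0215) turned after that adjustment (0.01, adjusted p = 0.929).

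Of 12 vascular basement membrane genes, 0 rose and 4 fell from 2 to 22 months, and their median was -0.22, or -0.07 after length and GC adjustment. Among all tested genes, 18.4% were called higher and 17.2% lower. The laminin chains Lama2 (-0.57 ± 0.10, adjusted p = 0.000667) and Lamc1 (-0.27 ± 0.08, adjusted p = 0.0186), the collagen chain Col4a1 (-0.43 ± 0.11, adjusted p = 0.00761) and fibronectin Fn1 (-0.42 ± 0.13, adjusted p = 0.018) fell in limma. Lamc1 was lost without replicate 1 or 2 at 2 months or replicate 1 or 3 at 22 months (adjusted p up to 0.103), and Fn1 without replicate 2 or 3 at 2 months or replicate 1 at 22 months (adjusted p up to 0.0665). None of these 4 passed after length and GC adjustment, when 1 of 12 was called higher and 0 lower. In that fit 22.3% of all tested genes were called in either direction. Among 6 intermediate filament genes beside Des, 3 rose and 2 fell. Vim, or vimentin, rose by 0.40 ± 0.08 (adjusted p = 0.000864) and Gfap, of astrocytes and SVZ stem cells, by 0.71 ± 0.13 (adjusted p = 0.000755), and each passed without any 1 library and after that adjustment. The lamin genes, whose products lie in the nucleus of all cell types, moved apart, Lmnb1 falling by 0.73 ± 0.10 (adjusted p = 8.2e-05) and Lmna rising by 0.39 ± 0.11 (adjusted p = 0.0131). Nes, or nestin, of stem cells and young vessels, fell by 0.30 ± 0.09 (adjusted p = 0.0137). Lmna was lost without replicate 2 at 2 months or replicate 3 at 22 months (adjusted p up to 0.0693), and Nes without replicate 3 at 2 months or replicate 1 at 22 months (adjusted p up to 0.0558) and after length and GC adjustment (-0.18, adjusted p = 0.0993). Synm, or synemin, which copolymerises with desmin, had -0.17 ± 0.08 (adjusted p = 0.103), and 0.08 after that adjustment (adjusted p = 0.455).

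**Figure D4:**
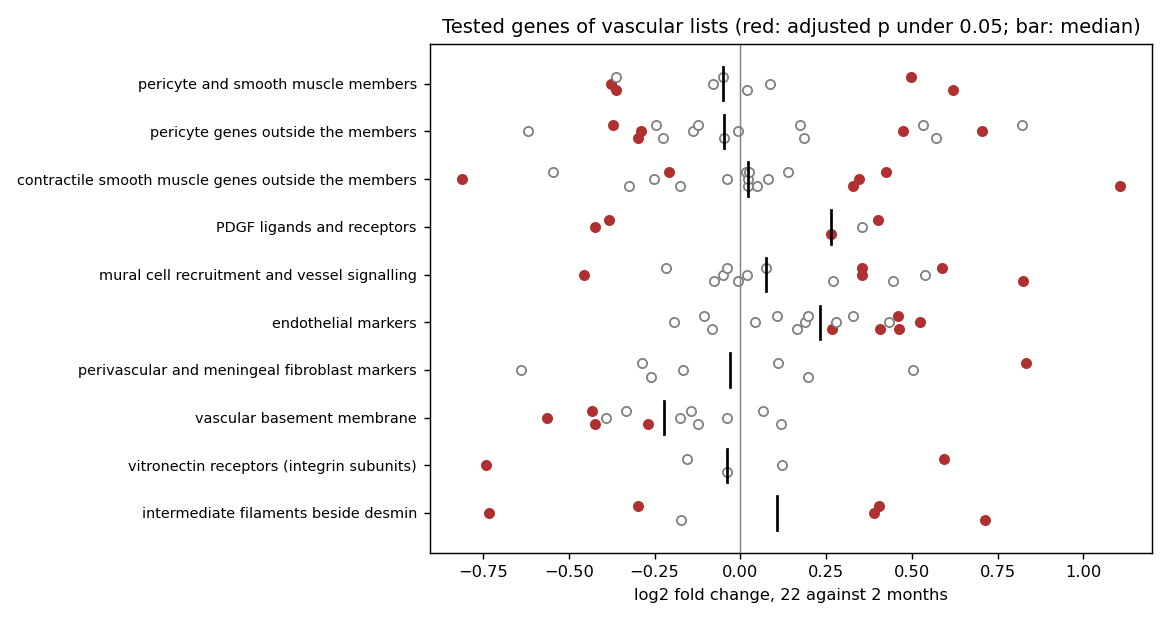
Log2 fold change at 22 against 2 months (horizontal axis) of the tested genes in 10 vascular or related lists (for vitronectin, the integrin subunits); red points have an adjusted p under 0.05, open points do not, and black bars are medians. The 9 members spread on both sides of 0 with a median of -0.05, and the basement membrane genes have a median of -0.22 (-0.07 after length and GC adjustment).

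Markers of other cell types moved over the same span, in which 18.4% of all tested genes were called higher and 17.2% lower. Endothelial markers were called higher for 5 of 16 and lower for 0, and their summed normalised count was 3678 to 4300 at 2 months and 4366 to 4596 at 22. Egfl7, a secreted endothelial protein, rose by 0.52 ± 0.11 (adjusted p = 0.00159) and passed without any 1 library and after length and GC adjustment (0.28, adjusted p = 0.0483). Cldn5, the tight junction claudin, rose by 0.46 ± 0.14 (adjusted p = 0.02), as did Ly6a, Ly6c1 and Slc2a1, and each of these 4 was lost without at least 1 library and after that adjustment. Microglia markers were higher for 4 of 7 (sum 3402 to 3508, then 4331 to 5037), ependymal markers for 5 of 7 (1436 to 1532, then 1847 to 2065), and erythroid markers for 2 of 3 (907 to 1580, then 2171 to 2732). The endothelial sum already averaged 4429 at 6 months, against 3991 at 2, and the erythroid sum 2161 against 1192. Oligodendrocyte markers were lower for 5 of 7 (85600 to 108717, then 67184 to 87400) and neuroblast markers for 6 of 7 (11544 to 12418, then 10564 to 11400). From 2 to 18 months 0 of 7 oligodendrocyte markers were called, and from 18 to 22 months 6 were called lower. The neuroblast sum had its lowest mean at 18 months (9852), against 11991 at 2 and 11116 at 22 months. Striatal neuron markers were higher for 5 of 7 and lower for 1 (53776 to 57470, then 62249 to 64993), and astrocyte markers higher for 3 of 7 and lower for 2 (38140 to 41085, then 37464 to 38366). From 2 to 18 months 0 of 7 striatal neuron markers were called, and from 18 to 22 months 6 were called higher. Choroid plexus markers were higher for 1 of 9 (3973 to 5293, then 3376 to 4602). Perivascular fibroblast markers were higher for 1 of 8 (499 to 524, then 453 to 550.2). No list's marker was at 0 in all libraries. These list counts and sums are without length and GC adjustment. The part of these shifts in the changes of Vtn, Myh11, Rgs5 and Des was not tested.

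Genes with the most similar pattern were ranked by Pearson's r over all 12 libraries, as a description without a test, since libraries of an age share their group and the 22-month libraries share a length shift. The genes given had the highest r among all tested genes with a symbol, and such a choice by itself raises r. Vtn lay closest to Ctsd, the lysosomal protease cathepsin D (r = 0.974), then 2010107G23Rik (0.971) and Sparcl1, a matricellular protein (0.963). After subtracting the age means the 3 values were 0.851, 0.891 and 0.815, and those of the other members ranked here ran from 0.75 to 0.92. Myh11 lay closest to Tcf12 (0.953), Mon2 (0.948) and Golgb1 (0.947), whose longest transcripts measure 6299, 9301 and 11001 nt. Rgs5 lay closest to Asxl3 (0.953), Cd247 (0.922) and Ttc28 (0.917), whose longest transcripts measure 11697, 2957 and 10780 nt. Des lay closest to Relt (0.917), Bmp6 (0.914) and Trappc6a (0.904). For Pdgfrb the closest were Ipo11 (0.869), Edar (0.865) and Efcab11 (0.844), and for Acta2 Ccdc88b (0.858), Ddx24 (0.836) and AI414108 (0.834). Edar and Efcab11 had low counts, with age means of 19.3 to 24.9 and 13.3 to 22.8. No member was among the 3 closest genes of any of these 6.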

How the data were processed

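The deposited table holds a normalised signal per gene and library, which the authors deposited and whose values behave as gene counts divided by a factor per library; DESeq2 and the build mm10 are named in the submitters' processing notes, and the aligner and counter are not given in the sources used here. Each value was a whole multiple of a library's read worth (100% of values, tolerance 1e-06), which returned the reads. Of the table's columns of values, 1 that matched no sample was not used. The 15663 genes reaching 10 normalised counts in 3 or more libraries were tested on log2(value + 1) in limma 3.58.1 (R 4.3.3) with an intensity trend, all 12 libraries in 1 fit, and Benjamini-Hochberg adjustment over all tested genes. Fold changes on that scale understate low genes slightly. Tests, 2-sided, covered 6 pairs of ages and an F test over the 4. Pairs sharing an age share its libraries.

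Alternatives were DESeq2 1.42.0 and edgeR 4.0.16 on recovered reads, a pseudocount of 5, no intensity trend, no filter, TMM scaling, leaving out each library, a replicate block, only the ages compared, and a length and GC adjustment that subtracts each library's smooth trend (splines of 4 degrees of freedom; GENCODE longest transcripts, 94.8% of tested genes). The fitting was checked on simulated data. The members and lists were chosen with earlier results of these data known. All members are named; from other lists, genes were eligible when called in at least 1 comparison, up to 6 a list by the smallest F p; those the mural and vessel results turn on are named and the rest counted. Genes whose role pairs with a member (Srf, Myocd, Mkl1, Notch3, Tpm2, Synm) were added after their values were seen. Gene positions and promoters came from RefSeq (GRCm38.p6), where 23666 of 23725 gene identifiers matched, and exon overlaps from GENCODE. Intervals and floors cover counting or replicate error only. For vitronectin partners, only integrin subunits are reported here.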

Additional observations from a re-analysis of the deposited data

How the results depend on the processing

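Counts of called members from 2 to 22 months went from 4 to 2 after length and GC adjustment, alone or with the replicate block (Vtn and Tagln), where the share of all genes called went from 35.7% to 22.3% and 21.1%, and ran from 2 (Vtn and Des, without replicate 2 at 2 months) to 5 with 1 library left out. From 2 to 18 months the count of 1 became 2 with edgeR, after length and GC adjustment and with only the ages compared, 0 with no intensity trend, and 0 to 2 with 1 library left out. From 18 to 22 months the count of 1 became 2 with only the ages compared, 0 with the replicate block plus the length and GC step, and 1 to 2 with 1 library left out. After length and GC adjustment alone the count stayed at 1, but it was Pdgfrb, higher, in place of Myh11, lower. From 6 to 18 months it was 0 to 1, the 1 being Vtn without replicate 1 at 6 months, and in the F test 2 to 4, the 4 without replicate 1 at 22 months. The cause of these moves was not tested. With the replicate block added to the length and GC step, adjusted p was 0.0626 for Vtn from 2 to 18 months, 0.0515 for Pdgfrb from 18 to 22 months and 0.0686 for Egfl7 from 2 to 22 months, against 0.0473, 0.0486 and 0.0483 without it. The replicate block alone changed no member count (4 from 2 to 22 months). Same-numbered libraries did not deviate together: 2 of 18 correlations exceeded 0.1, over a range of -0.187 to 0.159. Among called values of named genes outside the members, directions turned after length and GC adjustment, with or without the block, for Mkl2 from 18 to 22 months (0.07511) and from 2 to 22 months (0.08906) and for Notch1 from 6 to 22 months (0.01202). Notch3 and Synm, which were not called, also turned from 2 to 22 months (0.0799 and 0.0793). Of the members' values with 1 library left out, 629 kept their side of the threshold, 8 gained and 11 lost a call; under the other alternatives, 522 kept it, 8 gained and 10 lost. Anpep's 11 to 36 reads limit what could be seen of it.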
